A study of Mus musculus with 44 samples.

Results

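The genes described here encode the proteins that move calcium out of the cytosol of a neuron. They were taken by symbol from the deposited TRAP-seq count table and are the plasma membrane pumps *Atp2b1*, *Atp2b2*, *Atp2b3* and *Atp2b4*, the endoplasmic reticulum pump *Atp2a2*, the sodium-calcium exchangers *Slc8a1*, *Slc8a2* and *Slc8a3*, and the potassium-dependent sodium-calcium exchangers *Slc24a2* and *Slc24a4*. All 10 were among the 55335 genes of the table, and all 10 had counts in each of its 20 libraries. The list was chosen on the comparison of exercised with sedentary mice after simultaneous isolation, in which *Atp2b4* was lower, so that every value of that comparison is a description and no p-value is given for it.

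The mice were Emx1-NuTRAP males, the offspring of Emx1-IRES-Cre mothers and NuTRAP fathers, and every group carried both alleles. Cre driven from the Emx1 locus switches on tags on a ribosomal protein and on the nuclear envelope, mostly in excitatory forebrain neurons but also in neural progenitors, and TRAP recovers the mRNA bound to the tagged ribosomes. Early-life exercise (ELE) mice lived in pairs with a wheel to run on between postnatal days 21 and 41, while sedentary pairs had none. In simultaneous INTACT and TRAP (SIT), both hippocampi of a mouse were pooled and processed for nuclei and RNA together (4 ELE and 4 sedentary mice). In separate isolation the RNA came from 1 hippocampus of a mouse, the left (3 ELE and 3 sedentary mice) or the right (3 ELE and 3 sedentary mice), so that the left and right libraries are from different animals. The study compared 3 ELE and 2 sedentary SIT libraries, and its 3 excluded libraries are given here as left out.

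Calcium enters a neuron through channels during activity and has to be removed again within a short time. Plasma membrane calcium ATPases (PMCA) export it at the cost of ATP and with high affinity, SERCA pumps load it into the endoplasmic reticulum, and the exchangers of the Slc8 and Slc24 families export it in return for sodium, the latter with potassium carried along. PMCA pumps bind calmodulin, which relieves their autoinhibition, and the Slc8 and Slc24 exchangers have low affinity and high capacity, so that pumps are generally held to set the resting level and exchangers to clear large loads.

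The PMCA genes are close enough in sequence to ask whether reads tell them apart. The 81 coding bases around the aspartate that ATP phosphorylates, one of the most conserved stretches of the pump, were read from the GENCODE transcripts of GRCm38 for *Atp2b4*, *Atp2b1* and *Atp2b2*, and are shown because a read from *Atp2b4* could be mistaken for a paralogue only where such stretches match. Capitals mark bases that differ from *Atp2b4*.
Atp2b4: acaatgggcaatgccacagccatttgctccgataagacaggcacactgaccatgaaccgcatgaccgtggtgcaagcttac
Atp2b1: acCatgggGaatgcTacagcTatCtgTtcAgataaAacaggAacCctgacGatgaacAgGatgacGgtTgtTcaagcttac
Atp2b2: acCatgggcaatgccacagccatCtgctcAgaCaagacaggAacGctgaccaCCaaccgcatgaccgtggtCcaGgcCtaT
Even here *Atp2b1* differed from *Atp2b4* at 16 bases and *Atp2b2* at 12. Over the longest reading frame of each gene, the longest stretch that *Atp2b4* shared exactly was 26 bases with *Atp2b1* and also 26 bases with *Atp2b2*. None of the 12392 windows of 100 bases in *Atp2b4* transcripts, the length of 1 read, occurred in a transcript of another gene. Among the other members, 1.39% of the windows of *Atp2a2* and 0.134% of those of *Atp2b1* occurred in another gene, a predicted gene in both cases, and none did for the remaining 7.

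*Atp2b4* (ENSMUSG00000026463.17) lies on the minus strand of chromosome 1 of GRCm38 from 133699457 to 133801041. The annotation places the microRNA gene *Mir6903* and the predicted gene *Gm37368* on the same strand within it. *Slc24a4* (ENSMUSG00000041771.14) lies on the plus strand of chromosome 12 from 102128733 to 102267091. The other members are on chromosome 10 (*Atp2b1*), 6 (*Atp2b2*), X (*Atp2b3*), 5 (*Atp2a2*), 17 (*Slc8a1*), 7 (*Slc8a2*), 12 (*Slc8a3*) and 4 (*Slc24a2*), so that no PMCA gene neighbours another.

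Libraries held 45895097 to 65767802 counts. Markers of excitatory forebrain neurons (*Slc17a7*, *Camk2a*, *Neurod6* and *Emx1*) summed to between 5987 and 9392 CPM, counts scaled to library size, in the 20 libraries, and interneuron markers to between 40.0 and 74.7 CPM in the 12 separately isolated and the 5 SIT libraries that the study compared. The left-out sedentary SIT pair stood apart, with 782 and 808 CPM of interneuron markers, 124 and 132 CPM of microglial markers against at most 7.27 CPM elsewhere, and 8.64% and 9.64% of counts from mitochondrial genes against at most 0.523% elsewhere. Oligodendrocyte markers were sizeable in every library, between 1826 and 4056 CPM. TRAP from pooled cells cannot tell fewer cells of a type from less ribosome-bound mRNA per cell, and this holds for each value below.

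Per kilobase of exonic sequence the members covered a wide range of levels. Over the 12 separately isolated libraries *Slc8a2*, the exchanger most abundant in brain neurons, was at 129 ± 17.6 on the FPKM scale (SD, n = 12) and *Atp2a2*, the SERCA pump of most tissues, at 113 ± 7.80. *Atp2b1*, the most widely expressed PMCA gene, followed at 60.2 ± 8.31. Next were *Slc24a2*, a neuronal exchanger, at 48.4 ± 5.91, *Atp2b2*, the PMCA gene best known from cochlear hair cells and Purkinje neurons, at 36.7 ± 4.49 and *Atp2b3*, a PMCA gene largely restricted to the nervous system, at 24.2 ± 3.15. Together these genes supply both routes across the plasma membrane and the route into the endoplasmic reticulum.

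The remaining members were lower. *Slc8a1*, the main exchanger of heart muscle, was at 12.1 ± 1.58 on the FPKM scale (SD, n = 12), *Atp2b4* at 7.61 ± 2.06, *Slc24a4* at 6.64 ± 2.89 and *Slc8a3*, an exchanger of brain and skeletal muscle, at 2.55 ± 0.335. The order held in 12 of 12 libraries for 6 of the 9 neighbouring pairs. *Slc8a2* exceeded *Atp2a2* in 10 of 12, *Slc8a1* exceeded *Atp2b4* in 11 of 12 and *Atp2b4* exceeded *Slc24a4* in 10 of 12, so that the order of these 3 pairs depended on the mouse. The ranges over the 12 libraries overlapped for 6 of the 9 neighbouring pairs. In the SIT libraries, all 8 included, *Slc8a2* exceeded *Atp2a2* in 1, *Atp2b1* exceeded *Slc24a2* in 6 and *Slc24a4* exceeded *Slc8a3* in 7. *Slc8a1* exceeded *Atp2b4* in 7 of these 8, and *Atp2b4* exceeded *Slc24a4* in 7. Per exonic length *Atp2b4* was the least abundant PMCA gene in each library of either isolation.

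**Figure D1:**
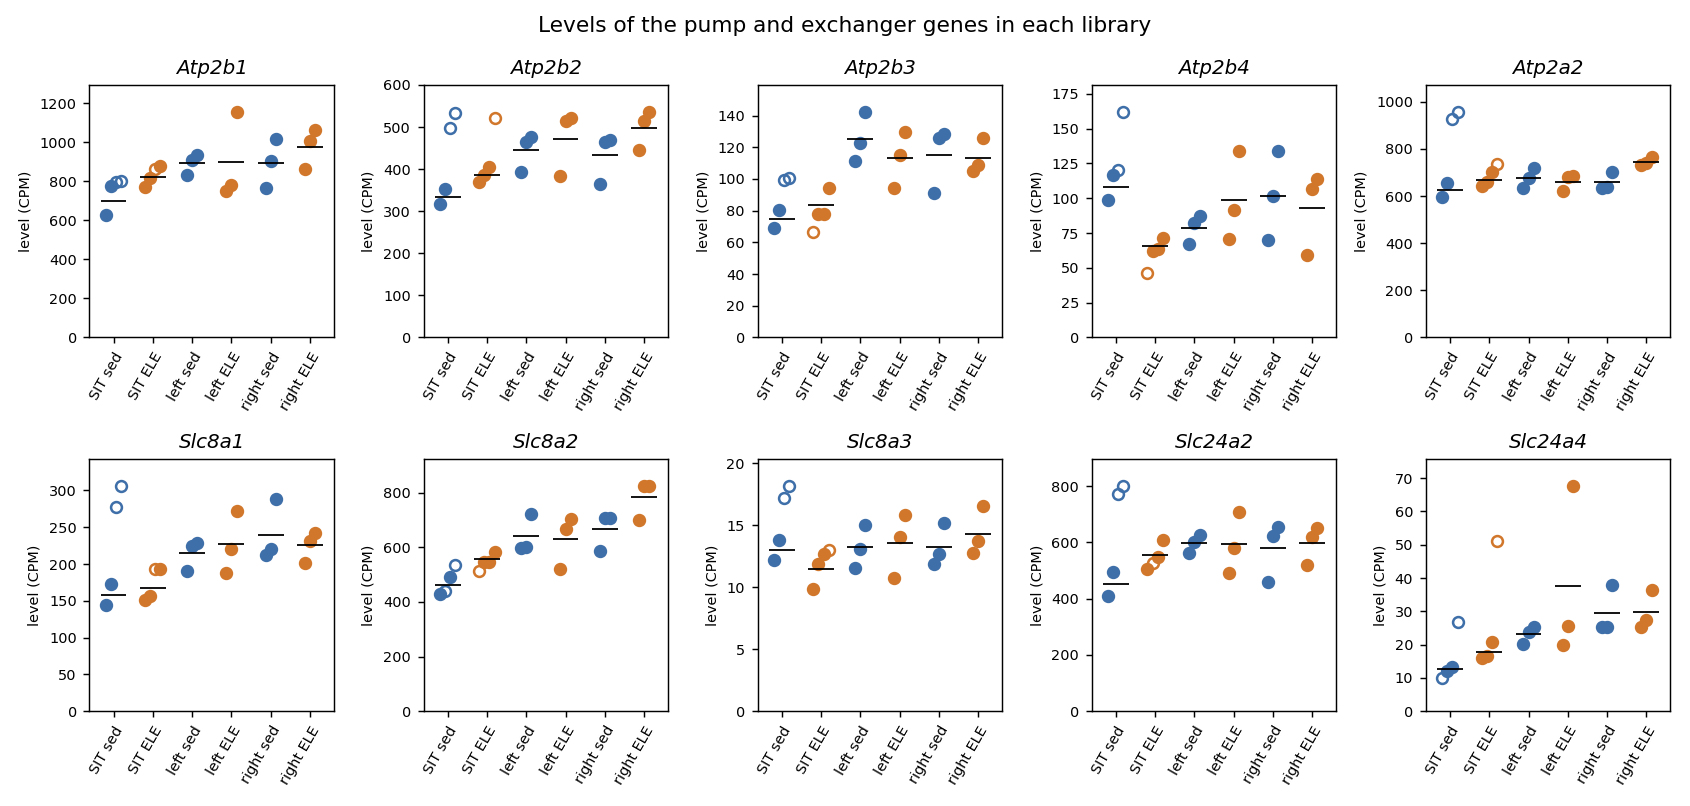
Level of each member in CPM (vertical axes, each from 0) in each library, by isolation, hemisphere and exercise (blue, sedentary; orange, ELE). Open circles are the 3 SIT libraries that the study left out, and the line is the mean of the filled points. *Atp2b4* separates the SIT groups, with ELE libraries between 46.6 and 71.1 CPM and sedentary libraries between 98.7 and 162 CPM, and overlaps between ELE and sedentary mice on the left and the right.

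In the SIT libraries, *Atp2b4* was lower in ELE mice. It was at 71.1, 61.8 and 63.7 CPM in the 3 ELE libraries compared and at 117 and 98.7 CPM in the 2 sedentary libraries. The left-out ELE library had 46.6 CPM and the left-out sedentary pair 162 and 120.2 CPM. All 4 ELE libraries were below all 4 sedentary libraries, including those left out. How many of all genes separated in this way was not counted. The log2 fold change of *Atp2b4* was -0.72 (standard error 0.115) for the libraries compared and -1.04 for all 8, where the left-out sedentary pair, which stood apart in interneuron, microglial and mitochondrial RNA, had the 2 highest levels. Both sedentary libraries compared were of mice numbered NT6, while those of ELE were of NT6 and other mice, and the left-out sedentary pair had another number. Exercise and mouse number were thus partly aligned in SIT. Within the SIT mice numbered NT6 the log2 fold change of *Atp2b4* was -0.89.

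Of the other members, *Slc24a4* was higher in the SIT libraries, with 20.8, 15.9 and 16.5 CPM in ELE and 13.1 and 12.1 CPM in sedentary mice, which is a log2 fold change of 0.49 (standard error 0.179). The left-out ELE library had 51.1 CPM and the left-out sedentary pair 26.9 and 10.1 CPM, of which the one at 26.9 CPM lay among the ELE libraries, so that the groups overlapped. A gene was called, by the study's rule, at an unadjusted p under 0.05 and a change of more than 1.31-fold. *Atp2b4* and *Slc24a4* were the 2 of 10 members called in SIT, where 3.65% of all 18238 genes tested were called. With all 8 libraries *Atp2b4* was the only member called, where 402 of 17531 genes were called up and 948 down. The log2 fold change of *Slc24a4* was then 0.74. Within the SIT mice numbered NT6, where 636 of 17738 genes were called up and 543 down, that of *Slc24a4* was 1.496 and called. The left-out ELE library at 51.1 CPM was among both sets of libraries. *Slc24a4* also lost its call without the ELE library at 20.8 CPM (log2 fold change 0.36) and without either sedentary library (0.55 and 0.43).

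The other 8 members had smaller differences. Log2 fold changes in SIT were 0.29 for *Slc24a2*, 0.27 for *Slc8a2*, 0.23 for *Atp2b1*, 0.21 for *Atp2b2*, 0.16 for *Atp2b3*, 0.10 for *Atp2a2*, 0.08 for *Slc8a1* and -0.18 for *Slc8a3*. With 1 library left out they ranged from 0.16 to 0.43 for *Slc24a2*, 0.18 to 0.38 for *Slc8a2*, 0.086 to 0.39 for *Atp2b1*, 0.13 to 0.29 for *Atp2b2*, 0.053 to 0.28 for *Atp2b3*, 0.033 to 0.17 for *Atp2a2* and -0.27 to -0.083 for *Slc8a3*. With all 8 libraries 5 of these 8 had the opposite sign, at -0.19 for *Slc24a2*, -0.02 for *Atp2b2*, -0.14 for *Atp2b3*, -0.19 for *Atp2a2* and -0.38 for *Slc8a1*. *Slc8a1* was also negative without the ELE library at 71.1 CPM of *Atp2b4* (-0.04) and without the sedentary one at 117 CPM (-0.05). Groups did not overlap for 5 members, *Atp2b4* below and *Atp2b2*, *Slc8a2*, *Slc24a2* and *Slc24a4* above, where 22.1% of all genes tested did not overlap. With all 8 libraries *Atp2b4* alone did not overlap, and the share of all genes without overlap was not counted for that set. The left-out sedentary pair had the highest levels of *Atp2b4* (162 and 120.2 CPM), *Atp2b3* (99.5 and 100.4 CPM), *Atp2a2* (925 and 957 CPM), *Slc8a1* (306 and 277 CPM), *Slc24a2* (801 and 773 CPM) and *Slc8a3* (18.2 and 17.2 CPM) of the 8 SIT libraries. The part that interneuron and glial RNA has in these levels was not tested.

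Among the 5 SIT libraries compared, *Atp2b4* moved with some marker lists. Markers of the choroid plexus summed to between 115 and 548 CPM in ELE and between 558 and 640 CPM in sedentary mice, red cell markers to between 2.16 and 7.05 CPM against between 15.4 and 17.8 CPM, and CA3 markers to between 322 and 327 CPM against between 266 and 282 CPM. Microglial markers summed to between 2.51 and 2.65 CPM in ELE and between 3.23 and 3.56 CPM in sedentary mice, and excitatory neuron markers to between 6123 and 6931 CPM against between 5987 and 6120 CPM. No marker of these lists was at 0 in all libraries. Their part in the SIT values was not tested.

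The genes were chosen on the SIT comparison and not on the left and right hippocampi, although earlier results of these data were known. In the left and right hippocampi *Atp2b4* overlapped between ELE and sedentary mice. On the left, ELE mice had 134, 91.3 and 70.9 CPM and sedentary mice 82.3, 67.2 and 87.3 CPM. The highest library was an ELE one and the groups overlapped. The log2 fold change was 0.33 (95% interval -0.17 to 0.83, edgeR quasi-likelihood, adjusted p = 0.960), upward rather than downward. Without the ELE mouse at 70.9 CPM it was 0.52 and passed the unadjusted rule for a call given above, and without the ELE mouse at 134 CPM it was 0.03. The left groups did not overlap in summed oligodendrocyte markers (2126 to 2433 CPM in ELE and 2452 to 2836 CPM in sedentary mice). The part of these cells in the left value of *Atp2b4* was not tested. On the right, ELE mice had 59.0, 106 and 114 CPM and sedentary mice 70.2, 134 and 102 CPM. Here the lowest library was an ELE one and the highest a sedentary one, and the log2 fold change was -0.13 (95% interval -0.70 to 0.45, edgeR quasi-likelihood, adjusted p = 0.9998).

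Over both hemispheres, with hemisphere as a term and 6 mice in each exercise group, the log2 fold change of *Atp2b4* was 0.10 (95% interval -0.32 to 0.53, edgeR quasi-likelihood, adjusted p = 0.978). The change on the right less that on the left was -0.46 (95% interval -1.30 to 0.39, edgeR quasi-likelihood, adjusted p = 0.99996). The difference between the isolations was not tested, because the SIT value had chosen the gene, and isolation, pooling of hemispheres and the animals used cannot be told apart.

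None of the 10 members was called on the left, where 2.07% of 17750 genes were called, and no member had an unadjusted p under 0.05. None was called on the right, where 1.97% of 17570 genes were. *Atp2a2* and *Slc8a2* had an unadjusted p under 0.05 there, with changes below the required fold. None was called over both hemispheres (1.97% of 18283 genes) or for the difference between hemispheres (2.20% of 18810 genes), and none had an unadjusted p under 0.05. DESeq2 called no member in these 4 comparisons either.

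The 2 members with an unadjusted p under 0.05 on the right did not pass after adjustment. *Atp2a2* had 730.2, 740.4 and 767 CPM in ELE and 702, 638 and 635 CPM in sedentary mice. Its groups did not overlap, as for 7.66% of the genes tested on the right, and it was the only such member there. The right groups also did not overlap in the summed markers of CA3 (276 to 322 CPM in ELE and 248 to 267 CPM in sedentary mice) and of microglia (2.11 to 2.25 CPM against 2.28 to 3.69 CPM), whose part in the value of *Atp2a2* was not tested. The log2 change of *Atp2a2* was 0.18 (SE 0.0799, edgeR quasi-likelihood, adjusted p = 0.9998), against -0.03 on the left. *Slc8a2* had 700.2, 825 and 826 CPM in ELE and 586, 709 and 707 CPM in sedentary mice, so that 1 ELE mouse was just below 2 sedentary mice. Its log2 fold change was 0.23 on the right (edgeR quasi-likelihood, adjusted p = 0.9998) and -0.02 on the left. On the left the groups overlapped for each of the 10 members, and 10.7% of the genes tested there did not overlap.

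*Slc24a4*, an exchanger with a role in the olfactory system and in enamel, had 67.7, 25.6 and 19.8 CPM in left ELE and 23.7, 20.3 and 25.4 CPM in left sedentary mice. A log2 fold change of 0.70 (SE 0.395, edgeR quasi-likelihood, adjusted p = 0.960) rested on the 1 library at 67.7 CPM, and was -0.02 without it. Without the ELE mouse at 19.8 CPM it was 0.998 and passed the unadjusted rule, as did the difference between hemispheres without that mouse (-0.99), which was 0.03 without the library at 67.7 CPM. On the right it was 0.01, with 25.4 to 36.5 CPM in ELE and 25.2 to 38.0 CPM in sedentary mice. The left library at 67.7 CPM and the left-out SIT library at 51.1 CPM also had the highest sums of striatal markers in their isolations, 71.2 and 124 CPM. A left sedentary library with 23.7 CPM of *Slc24a4* had 66.7 CPM of striatal markers. The left library at 67.7 CPM also had the highest microglial sum (5.37 CPM) and the lowest CA2 sum (142 CPM) of separate isolation. The left-out SIT library had 108 CPM of interneuron markers. The part of tissue and cell makeup in these values was not tested.

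None of the remaining exchangers and pumps passed the test. Over both hemispheres the log2 fold changes were 0.15 for *Atp2b2*, 0.07 for *Atp2b1* and -0.08 for *Atp2b3*. *Slc8a2* was at 0.11, *Slc8a3* at 0.08, *Slc24a2* at 0.02 and *Slc8a1* at -0.01, with standard errors between 0.0872 and 0.116 for these 7 genes. Over the 10 members 8 were positive and 2 negative, with a median of 0.08, beside a median of -0.00117 over all genes tested.

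**Figure D2:**
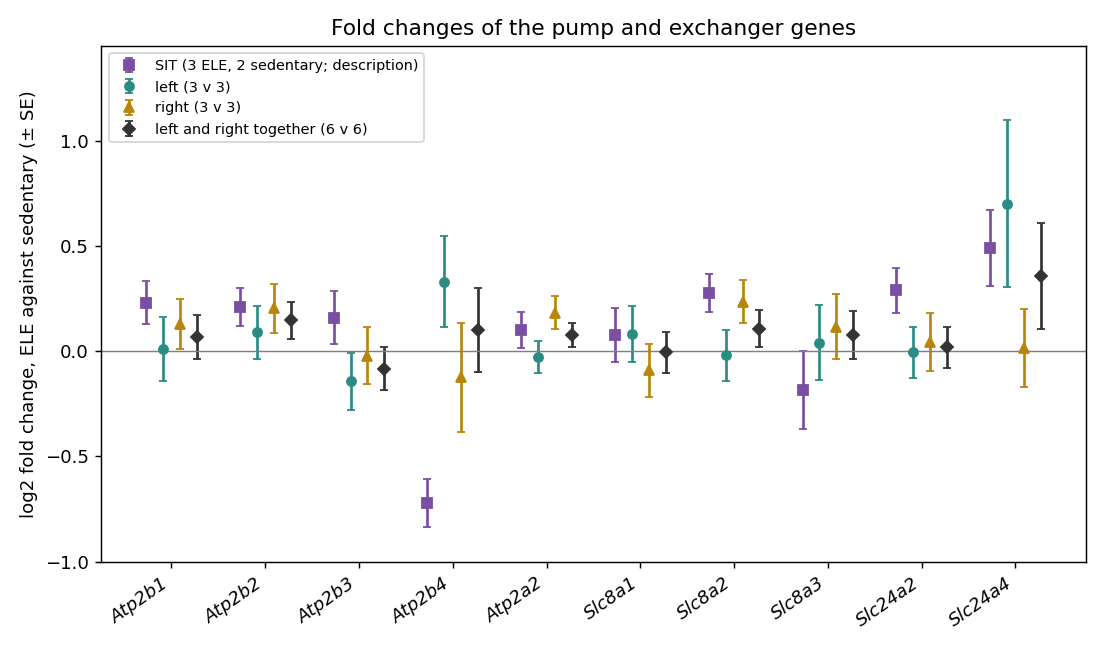
Log2 fold change in ELE relative to sedentary mice (vertical axis) for each member in SIT, on the left, on the right and over both hemispheres, with bars of 1 standard error derived from the edgeR test statistic. *Atp2b4* is at -0.72 in SIT, the comparison on which the genes were chosen, and at 0.33, -0.13 and 0.10 in the other 3.

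Whether a fall of *Atp2b4* was offset by its paralogues was asked on the sum of the 4 PMCA genes per exonic length. In the SIT libraries compared, *Atp2b4* averaged 5.35 on the FPKM scale in ELE and 8.80 in sedentary mice, a difference of -3.45. *Atp2b1* averaged 54.1 against 46.1, *Atp2b2* 30.7 against 26.5 and *Atp2b3* 17.3 against 15.5, together 14.0 higher in ELE mice. The sum of these 3 was 80.6 and 95.5 in the 2 sedentary libraries and between 96.1 and 106 in the ELE ones, and its log2 difference of 0.22 was 0.095 without the sedentary library at 80.6. The PMCA sum was 107 in ELE and 96.9 in sedentary mice, so that the difference of *Atp2b4* was smaller than that of the other three, of opposite sign, in these libraries. With all 8 libraries the paralogues together were 3.53 higher and *Atp2b4* was 5.19 lower, and the sum was 110 against 111.

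The share of *Atp2b4* in the PMCA sum was 5.18%, 4.62% and 5.13% in the SIT ELE libraries compared and 10.6% and 7.78% in the sedentary ones. The left-out libraries had 3.28% in ELE and 10.3% and 7.99% in sedentary mice. The share was lower in every SIT ELE library than in every SIT sedentary one. In both groups *Atp2b1* was the largest term of the PMCA sum and *Atp2b4* the smallest, per exonic length. In CPM, without division by length, *Atp2b4* exceeded *Atp2b3* in each SIT sedentary library and was below it in each SIT ELE library.

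In separate isolation neither the share nor the sum differed with exercise beyond the spread between mice. The share was 6.56% ± 2.86 (SD, n = 3) in left ELE and 5.13% ± 0.906 in left sedentary mice, a difference of 1.42 percentage points (two-sided exact permutation test, p = 0.5). On the right it was 5.69% ± 1.96 (SD, n = 3) against 6.83% ± 2.88, a difference of -1.14 points (two-sided exact permutation test, p = 0.7). Over both hemispheres the difference was 0.142 points (exact permutation of mice within hemispheres, p = 0.915). The smallest p that the test allows is 0.1 within a hemisphere and 0.005 over both.

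The log2 of the PMCA sum differed by 0.06 over both hemispheres (exact permutation test, p = 0.505), with a mean of 7.03 ± 0.159 in ELE and 6.97 ± 0.126 in sedentary mice (SD, n = 6). Without *Atp2b4* the difference was 0.06 (exact permutation test, p = 0.585). On the right the sum without *Atp2b4* was higher by 0.13 in ELE mice (exact permutation test, p = 0.5, and between 0.0035 and 0.21 with a library left out) and on the left lower by a difference of -0.01 (exact permutation test, p = 1). Single libraries ranged from 109 to 150 on the FPKM scale, more than the groups differed.

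**Figure D3:**
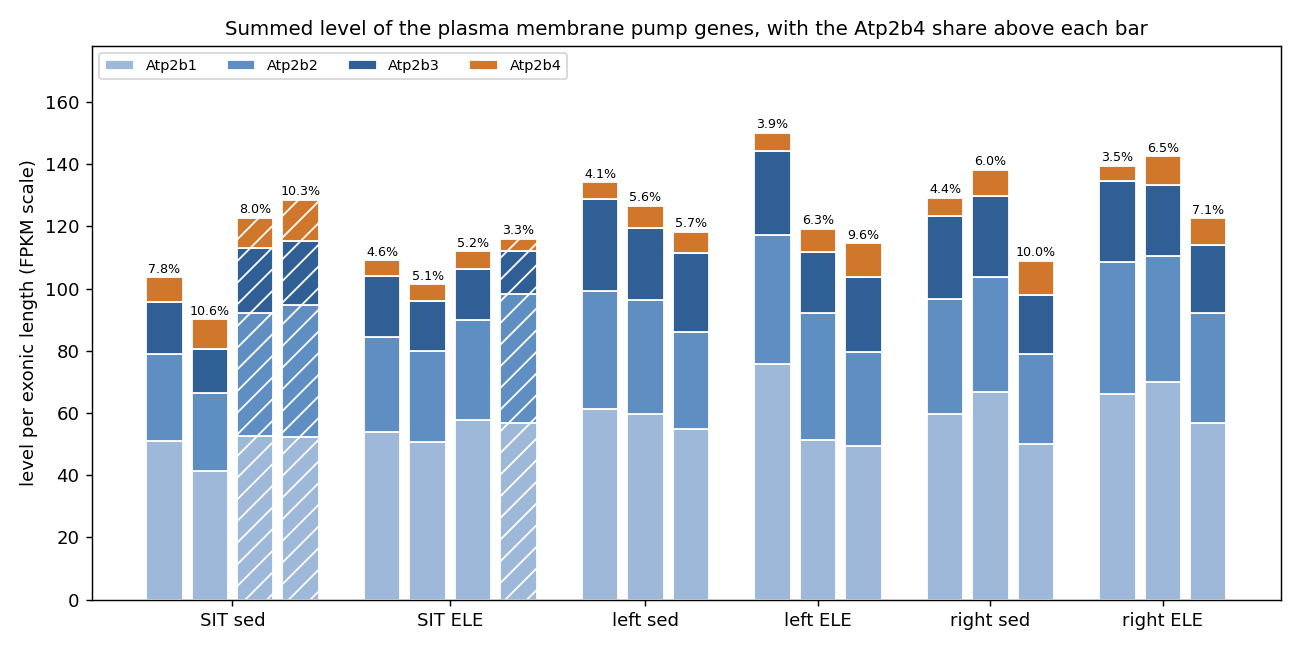
Summed level of the 4 PMCA genes per exonic length (vertical axis, FPKM scale) in each library, stacked by gene, with the *Atp2b4* share in percent above each bar and hatching on the SIT libraries that the study left out. The share is between 3.3% and 5.2% in SIT ELE and between 7.8% and 10.6% in SIT sedentary libraries, and between 3.5% and 10.0% in separately isolated ones, with both exercise groups across that range.

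*Atp2b4* varied between mice of the same group far more than most genes of its level. The pooled standard deviation of its log2 CPM within the 4 groups of separate isolation was 0.43, larger than that of 98.9% of the 3477 other genes whose mean was within a factor of 2 of its own, whose median was 0.12. With each library left out in turn it was between 0.37 and 0.46. *Slc24a4* had 0.52, larger than 98.6% of 4578 genes, but this rested on the left ELE library at 67.7 CPM, without which it was 0.26, larger than 93.2% of 4552 genes. *Atp2a2* was at the other end, with 0.07, above 17.7% of 447 genes. *Atp2b1*, *Atp2b2*, *Atp2b3*, *Slc8a1*, *Slc8a2*, *Slc8a3* and *Slc24a2* lay between 0.17 and 0.22, larger than between 67.9% (*Slc8a3*) and 93.1% (*Atp2b1*) of genes of like level, so that 9 of the 10 members were above the median of such genes.

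The spread of *Atp2b4* was not alike in the 4 groups. The ratio between the highest and the lowest library was 1.89 in left ELE, 1.93 in right ELE and 1.90 in right sedentary mice, but 1.30 in left sedentary mice, which lay between 67.2 and 87.3 CPM. For *Atp2a2* the ratio within a group was between 1.05 and 1.13. Counts of *Atp2b4* were between 2372 and 8883 in a library, so that counting error was small beside these differences.

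**Figure D4:**
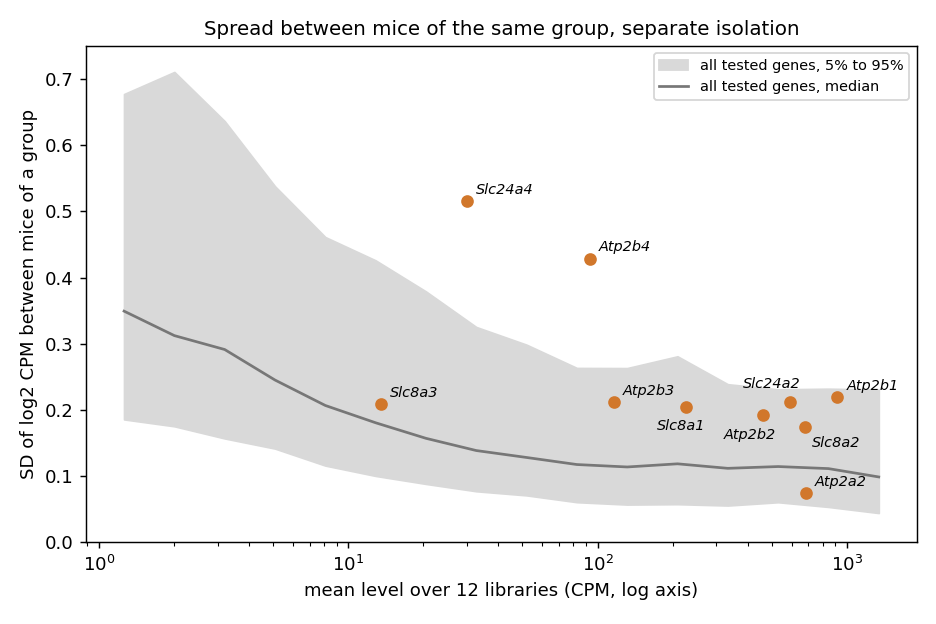
Standard deviation of log2 CPM between mice of the same group (vertical axis) against mean level in CPM (horizontal log axis) over the 12 separately isolated libraries. The grey band holds 5% to 95% of all tested genes at each level and the line is their median. *Atp2b4* at 0.43 and *Slc24a4* at 0.52 (0.26 without 1 left ELE library) lie above the band, and *Atp2a2* at 0.07 below the median.

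Across the 12 separately isolated libraries, libraries with less *Atp2b4* held more of the other PMCA genes by Pearson's r, while Spearman's rho missed the threshold. This relation was computed after the values had been seen. Pearson's r between the log2 level of *Atp2b4* and that of the sum of *Atp2b1*, *Atp2b2* and *Atp2b3* was -0.66 (permutation test, p = 0.0199) and Spearman's rho was -0.56 (permutation test, p = 0.0634). Without the 2 libraries farthest from the median of *Atp2b4*, r was -0.53. It was -0.81 within the left and -0.60 within the right hippocampus (6 libraries each, exact permutation tests, p = 0.0583 and p = 0.185), and -0.70 within ELE and -0.69 within sedentary mice.

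Of the 9 relations of *Atp2b4* with a single member, none passed a Benjamini-Hochberg adjustment, the lowest adjusted permutation p for Pearson's r being 0.0926. The coefficients were -0.68 for *Atp2b3*, -0.63 for *Atp2b2*, -0.63 for *Slc24a2* and -0.50 for *Atp2b1*, and 0.53 for *Slc8a3*. *Atp2b4* also moved with the makeup of the libraries. Over the same 12, r was -0.72 with the summed markers of excitatory neurons, -0.69 with those of CA3, -0.66 with those of CA1 and of oligodendrocytes, -0.57 with those of dentate granule cells and 0.04 with those of the choroid plexus, while the PMCA sum without *Atp2b4* had r of 0.65 with CA3, 0.56 with CA1, 0.56 with astrocyte and 0.55 with excitatory markers, and of -0.65 with microglial, -0.62 with fibroblast and mural and -0.58 with striatal markers. These marker coefficients are descriptions over libraries that share preparation, and the part of dissection and cell makeup in the relation was not tested.

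**Figure D5:**
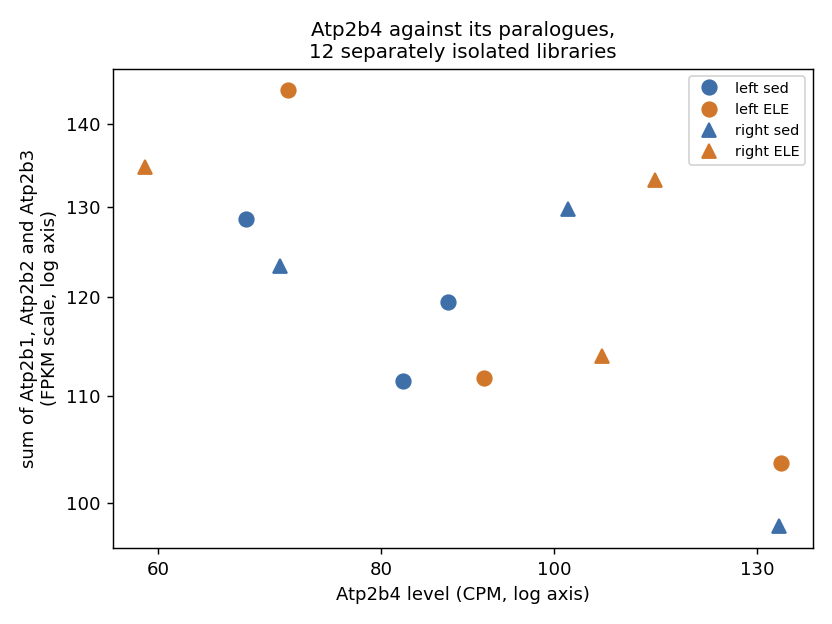
Sum of *Atp2b1*, *Atp2b2* and *Atp2b3* (vertical log axis, FPKM scale) against *Atp2b4* (horizontal log axis, CPM) in the 12 separately isolated libraries (circles, left; triangles, right; blue, sedentary; orange, ELE). The 2 libraries with the highest *Atp2b4*, both at 134 CPM, have the lowest sums, and 1 is ELE and 1 sedentary.

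The 5 genes whose log2 CPM followed *Atp2b4* most closely over these 12 libraries were *Snrpf*, a component of the spliceosome (r = 0.894), *Dusp26*, a phosphatase (r = 0.892), *Tmem132d* (r = 0.887), *Garnl3* (r = 0.885) and *6330408M09Rik* (r = 0.884). They are the top of 18283 genes ranked by Pearson's r, and the coefficients are a description without a test.

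Other genes of calcium handling were counted from a list of 42, which covers the remaining pumps, release channels, store-operated entry, mitochondrial uptake, calcium-binding proteins and voltage-gated channels. On the left, none of the 39 tested was called and none had an unadjusted p under 0.05, and DESeq2 called none. On the right, *Atp2c2*, a pump of the secretory pathway, was the 1 of 40 called, beside 1.97% of all genes tested. It had 2.09, 1.61 and 1.73 CPM in ELE and 2.93, 3.16 and 2.63 CPM in sedentary mice, and it changed by -0.68 on the log2 scale (SE 0.253, edgeR quasi-likelihood, adjusted p = 0.9998). Over both hemispheres and for the difference between them no gene of the list was called, and 1 in each had an unadjusted p under 0.05.

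In the SIT libraries compared, 4 of 40 list genes were called, beside 3.65% of all genes tested, given as a description like the members. *Calb2*, the calcium-binding protein calretinin, had 38.1, 27.1 and 32.5 CPM in ELE and 49.8 and 48.2 CPM in sedentary mice, which is a log2 fold change of -0.59. *Cacna1h*, a T-type calcium channel, was higher by 0.42, with 66.8 to 81.1 CPM in ELE and 51.9 and 59.0 CPM in sedentary mice. *Pvalb*, parvalbumin of interneurons, and *Atp2a3*, a SERCA pump of blood and epithelial cells, had log2 fold changes of -1.17 and -2.45 at levels between 0.0184 and 1.77 CPM. On the left and the right none of these 4 was called. Their log2 fold changes on the right were 0.10 for *Calb2*, 0.28 for *Cacna1h*, -1.07 for *Pvalb* and -1.18 for *Atp2a3*, and on the left 0.17, 0.10, 0.14 and -0.14.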

How the data were processed

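TRAP-seq counts of 20 Emx1-NuTRAP hippocampal libraries, each from 1 mouse, were analysed. The authors aligned reads to GRCm38 with STAR 2.7.3a, removed duplicates with Picard 1.87, counted pairs of reads falling on exons of the matching strand with GenomicAlignments, and deposited these counts unnormalized. The other deposited table holds 24 wild-type columns, which were not used. Columns carry mouse numbers, which the sample labels do not, and were assigned to groups with the study's list of mice, on which every comparison rests. 1 PMCA stretch is not reported here. The 3 ELE and 2 sedentary SIT libraries that the study compared were found as the 1 subset whose mean normalized counts matched its lists for 633 of 633 genes (next best 7). Libraries of a group differed by more than sampling noise (chi-square per gene at least 20.2 over 24 pairs), and totals were between 45895097 and 65767802 counts.

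Symbols and exonic lengths came from GENCODE for GRCm38, and the sequences shown are GENCODE transcripts of that build. Counts were scaled with TMM, filtered with filterByExpr and compared with edgeR's quasi-likelihood test (edgeR 4.0.16, R 4.3.3) over all genes, with Benjamini-Hochberg adjustment. By the study's rule, genes were called where the unadjusted p was under 0.05 and the log2 fold change exceeded 0.3875 in either direction. CPM are TMM-scaled over all 20 libraries, log2 CPM have 0.5 added, and the FPKM scale is CPM per kilobase of exonic length. Standard errors were derived from the log2 fold change and the F statistic of its test. Intervals at 95% use them, with degrees of freedom derived from the p of the same test. PMCA sums were set against exercise in two-sided exact permutation tests, and correlations tested with permutation tests (100000 draws, exact for 6 libraries). Steps were tested on simulated data.

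The members and lists were chosen with earlier results of these data known. Named were the members, list genes that were called, and the 5 genes most correlated with *Atp2b4*. Alternatives were DESeq2 1.42.0, median-of-ratios size factors, no filter, an adjusted threshold, each library left out, all 8 SIT libraries, the SIT mice numbered NT6, a replicate block, and sums without division by length.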

Additional observations from a re-analysis of the deposited data

Results flagged for a closer look

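Of 26 groups of 4 SIT libraries tested with Dixon's ratio (10 members and 3 PMCA measures in ELE and in sedentary mice), 2 exceeded the 95% critical value for groups of that size, and chance alone flags about 1 in 20. *Slc24a4* in SIT ELE mice had a ratio of 0.859, because the left-out ELE library was at 51.1 CPM while the other three were between 15.9 and 20.8 CPM. *Atp2b1* in SIT sedentary mice had a ratio of 0.842, because 1 library that the study compared was at 628 CPM while the others were between 774 and 802 CPM. No member's change differed between the left and right hippocampus by the interaction test at the calling threshold.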

How the results depend on the processing

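Across 842 values recomputed under an alternative, 744 kept their direction and side of the threshold or stayed within the spread between mice. Not all of these could change. The adjusted threshold leaves each log2 fold change outside SIT as it was, and these values were counted as kept. The exact permutation test within a hemisphere cannot go below p = 0.1, so that only its direction could turn. The 744 is therefore not a measure of stability. SIT calls are a description, since SIT chose the genes, and at an adjusted p under 0.05 they numbered 0. The members called in SIT numbered 1 with all 8 libraries, where 402 of 17531 genes were called up and 948 down. They numbered 3 within the NT6 mice (*Atp2b2* at 0.46, *Atp2b4* and *Slc24a4*), where 636 of 17738 genes were called up and 543 down. With an ELE library left out they numbered 1 or 2. Without the ELE library at 71.1 CPM of *Atp2b4*, or the sedentary one at 117 CPM, *Slc24a4* was not called, and without the sedentary one at 98.7 CPM *Atp2b1*, *Atp2b4* and *Slc24a2* were. On the left and for the difference between hemispheres, no filter on low counts called 1 member, *Slc24a4*, and leaving out a library called 0 to 1. That member was *Slc24a4* without the left ELE mouse at 19.8 CPM of *Slc24a4*, and on the left *Atp2b4* without the ELE mouse at 70.9 CPM of *Atp2b4*. The cause was not tested.

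The SIT difference in the PMCA sum (0.15 on the log2 scale) was -0.0094 with all 8 libraries, and without *Atp2b4* it was 0.062 in place of 0.22. The left difference without *Atp2b4* was 0.0046 without division by length. With a library left out, the *Atp2b4* share differed by -5.61 to -2.80 points in SIT, -0.0747 to 2.77 on the left, -2.33 to 0.461 on the right and -0.607 to 0.942 over both. The log2 sum differed by 0.052 to 0.25 in SIT, -0.11 to 0.084 on the left, 0.011 to 0.18 on the right and -0.00065 to 0.0964 over both, and without *Atp2b4* by 0.095 to 0.34 in SIT, -0.15 to 0.085 on the left, 0.0035 to 0.21 on the right and -0.013 to 0.11 over both. The relation of *Atp2b4* with its paralogues had r = -0.65 with median-of-ratios factors, and the spread of *Slc24a4* was 0.26 without the left ELE library at 67.7 CPM, both alternatives chosen after seeing the data. Within the NT6 mice the SIT change of *Atp2b3* was -0.06.

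Log2 fold changes that turned sign when a library was left out spanned zero as follows. In SIT they were -0.0467 to 0.21 for *Slc8a1*. On the left they were -0.21 to 0.11 for *Atp2b1*, -0.072 to 0.0159 for *Atp2a2*, -0.0641 to 0.19 for *Slc8a1*, -0.10 to 0.0887 for *Slc8a2*, -0.10 to 0.19 for *Slc8a3*, -0.15 to 0.0997 for *Slc24a2* and -0.0166 to 0.998 for *Slc24a4*. On the right they were -0.18 to 0.0628 for *Atp2b3*, -0.33 to 0.12 for *Atp2b4*, -0.17 to 0.0613 for *Slc8a1*, -0.0020 to 0.21 for *Slc8a3*, -0.11 to 0.14 for *Slc24a2* and -0.16 to 0.23 for *Slc24a4*. Over both hemispheres they were -0.0212 to 0.12 for *Atp2b1*, -0.0574 to 0.24 for *Atp2b4*, -0.0787 to 0.0742 for *Slc8a1* and -0.0477 to 0.0687 for *Slc24a2*. For the difference between hemispheres they were -0.00553 to 0.20 for *Atp2b2*, -0.0237 to 0.23 for *Atp2b3*, -0.0688 to 0.22 for *Slc8a3*, -0.0939 to 0.20 for *Slc24a2* and -0.99 to 0.0322 for *Slc24a4*. Mice sharing the first part of their number did not all deviate together (correlations from -0.0888 to 0.220). With this number as a replicate block no member was called on the left, on the right, over both or for the difference between hemispheres, the 4 comparisons in which the block was run, and the left change of *Atp2b1* was -0.016.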
